A study of Homo sapiens with 2 samples.

Results

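The genes described here are S100A4, S100P, SNAI2, KLF4 and TM4SF1, grouped because each has a known part in the invasion of tumour cells or in the plasticity of cell identity. They were chosen from the authors' deposited tables of probe sets that differed at least 2-fold between the samples, wherever the gene symbol was one of these names. This gave 7 probe sets of 5 genes, out of 244 listed probe sets and 190 listed genes with a single symbol. Because a 2-fold difference put each probe set in those tables, the direction and size of the differences are a description and carry no test. Of the 5 genes, 4 were lower and 1 was higher in the caveolin-1 knockdown sample, so the group did not move as a unit.

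RNA was measured on 2 Affymetrix HG-U133 Plus 2.0 arrays, 1 from Hep3B shCav1 cells, which carry a short hairpin against Cav1, and 1 from Hep3B shCtl cells, which carry a non-target hairpin. Hep3B is a human line established from a hepatocellular carcinoma. The labels give the same medium, DMEM-HG, for both samples. Caveolin-1 is the coat protein of caveolae, the flask-shaped pits of the plasma membrane. Not given in the sources used here are the hairpin sequence and whether either line was a clone or a pool. Since each group has 1 array, no difference could be checked against replicates and no p-value is given. An effect of the knockdown cannot be told apart from any other difference between the samples or arrays. In RNA from a whole culture, fewer expressing cells and less RNA per cell cannot be told apart either.

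Invasive behaviour in carcinoma is often described as a partial epithelial-to-mesenchymal transition, in which cells lose junctions and gain motility. SNAI2 (Slug) is a zinc finger repressor that binds E-boxes, short DNA elements, and silences epithelial genes, while S100A4 (also called metastasin) binds nonmuscle myosin and is widely used as a mesenchymal marker. S100P is a related calcium-binding protein that can be secreted and that binds the receptor RAGE and ezrin. KLF4 is a zinc finger transcription factor of epithelial differentiation and one of the factors used to reprogram cells to pluripotency. TM4SF1 is a membrane-spanning surface protein, abundant on many carcinomas and on endothelium, with a known role in cell protrusions and migration.

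The hairpin target was examined first. The CAV1 signal at probe set 212097_at was 935 on the shCtl array against 61.8 on the shCav1 array, and at 203065_s_at it was 524 and 38.7, all in linear signal units. Here and below a shCav1 signal is the deposited shCtl signal times the fold between the samples, and a log2 difference is shCav1 minus shCtl. Both CAV1 probe sets were far lower in the sample labelled as the knockdown, at 6.61% and 7.38% of the shCtl signal. Of 54613 probe sets that are not controls, 28128 (51.5%) had a signal of at least 30.7, the median of all values, on the brighter array. The robust SD of the log2 differences among these was 0.21. Of the 28128, 0.299% (84) were at least 2-fold lower and 0.501% (141) at least 2-fold higher in shCav1. Centring the differences on the hybridization spikes, transcripts added to the sample from outside, turned this balance to 142 lower and 102 higher. All 7 probe sets of the 5 genes passed this brightness filter. Since the 2-fold listing chose them, nothing is read from their number against these shares. The 18 probe sets for these spikes had log2 differences from 0.07 to 0.25, with a median of 0.14, so all were brighter on the shCav1 array. For the actin control AFFX-HSAC07/X00351 the log2 difference was -0.88 at the 5' probe set and -0.22 at the 3' probe set, and for the GAPDH control AFFX-HUMGAPDH/M33197 it was -0.24 and -0.05. The part of these array differences in the results below was not tested.

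The calcium-binding genes S100A4 and S100P were both lower in the knockdown sample. S100A4 had a signal of 427 in shCtl and 155 in shCav1 at its listed probe set, 203186_s_at. The knockdown sample thus held 36.2% of the control signal, a log2 difference of -1.46. S100P, at 204351_at, had a signal of 319 in shCtl and 76.5 in shCav1, or 24.0% of the control, with a log2 difference of -2.06. S100P was the lowest of the 5 genes relative to its control, and its difference ranked 6 among the 84 bright probe sets that were at least 2-fold lower. S100A4 ranked 21. On both arrays the signals of both genes stayed above the shCtl array median of 30.6, S100P at 10.4 times that median in shCtl, so neither difference rests on a signal near background in the control.

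The deposited alignments name no genome build. In them the S100A4 probe set lies on the minus strand at chr1:153516097-153518282 (band 1q21.3) and that of S100P on the plus strand at chr4:6695638-6698891 (band 4p16.1). Most S100 genes stand side by side on chromosome 1. In the gene order of the RefSeq annotation of GRCh38.p14, the 5 protein-coding genes on either side of S100A4 were all S100 genes, among them S100A6, S100A5, S100A3 and S100A2. None of these 10 neighbours was listed past 2-fold, nor was any of the 10 protein-coding neighbours of S100P, of SNAI2 or of KLF4. Of all bright probe sets only 0.299% were at least 2-fold lower and 0.501% higher, so nothing is read from these counts. Of the 19 S100 genes looked for, 2 were listed, both lower and both described here. For the other 17, a difference under 2-fold is not excluded, because probe sets under 2-fold carry no gene name in the tables used. None of 8 partners of S100 proteins, which include the receptor gene AGER, ANXA2, EZR and MYH9, was listed.

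The promoters of these genes, taken from RefSeq (GRCh38.p14, from 250 bases before to 50 bases after the gene start), are shown because S100A4 and S100P belong to the same family and were lower together. Capitals mark every match, on either strand, to CAGGTG (the E-box that SNAI-family repressors bind), GGGCGG (the GC box), CACCC (a core of KLF sites), CCAAT (the CCAAT box), TATAAA (the TATA box) and also CCATAT. The S100A4 window is chr1:153545757-153546056 on the minus strand and the S100P window chr4:6693628-6693927 on the plus strand.
S100A4: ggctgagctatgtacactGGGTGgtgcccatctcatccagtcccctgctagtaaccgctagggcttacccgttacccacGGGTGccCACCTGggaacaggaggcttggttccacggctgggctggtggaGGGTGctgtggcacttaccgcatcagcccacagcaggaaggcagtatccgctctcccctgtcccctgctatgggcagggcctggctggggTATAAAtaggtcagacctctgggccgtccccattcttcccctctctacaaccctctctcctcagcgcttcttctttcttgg
S100P: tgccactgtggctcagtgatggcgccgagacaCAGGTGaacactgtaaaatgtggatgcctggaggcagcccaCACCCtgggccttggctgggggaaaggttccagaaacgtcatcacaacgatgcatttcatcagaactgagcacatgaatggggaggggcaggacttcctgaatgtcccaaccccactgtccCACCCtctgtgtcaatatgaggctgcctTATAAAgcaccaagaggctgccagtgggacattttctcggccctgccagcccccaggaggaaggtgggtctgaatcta
Both windows held the same 3 of the 6 motifs. TATAAA began 31 bases before the start of S100A4 and 28 bases before that of S100P, and 11.5% of all 35116 promoter windows hold it. CAGGTG or its reverse complement occurred at 164 bases before the start of S100A4 and at 218 bases before that of S100P, against 20.6% of all windows. CACCC occurred 3 times in S100A4 and 2 times in S100P, and 59.9% of windows hold it. No base belonged to more than 1 match. These matches are a description of the letters, not of binding.

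SNAI2 had the smallest difference of the 5 genes. At 213139_at it gave a signal of 160 in shCtl against 77.0 in shCav1. The knockdown sample had 48.2% of the control signal, a log2 difference of -1.05, close to the 2-fold limit that defines the tables. Adding a pseudocount of 16 to both signals moved it to -0.92, below 2-fold. For scale, the listed lower probe sets nearest to the limit were GPX2 with -1.01 (202831_at) and GPBP1L1 with -1.01 (1569320_at), and the nearest outside it were 1556172_at and 204268_at, both at -0.999998 and without a gene name here. SNAI2 ranked 68 among the 84 bright lower probe sets.

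KLF4 was lower by a larger factor, and its signal in the knockdown sample was close to the array median. The probe set 221841_s_at gave 102 in shCtl and 33.9 in shCav1. The shCav1 value is 33.2% of the control, a log2 difference of -1.59, and ranked 16 among the 84. It is also only 1.10 times the median of the shCav1 array, so the size of the KLF4 difference depends on how background is treated, and a pseudocount of 16 changed it to -1.24. The deposited alignment places the probe set on the minus strand at chr9:110247134-110250706 (band 9q31.2). The KLF4 promoter, chr9:107489720-107490019 on the minus strand in GRCh38.p14, is shown with the same motifs in capitals, as a contrast to the promoters of the S100 genes.
KLF4: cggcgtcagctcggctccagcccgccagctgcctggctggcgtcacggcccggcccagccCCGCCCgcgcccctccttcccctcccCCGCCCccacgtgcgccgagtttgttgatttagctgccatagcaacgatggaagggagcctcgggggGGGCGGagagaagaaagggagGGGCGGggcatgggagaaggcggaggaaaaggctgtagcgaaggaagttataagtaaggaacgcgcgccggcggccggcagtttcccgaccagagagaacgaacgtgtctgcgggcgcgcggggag
Its GC content was 69.0%, against 60.7% for S100A4, 56.0% for S100P and a median of 58.7% over all windows. It held GGGCGG 4 times, a motif present in 45.0% of windows, and none of the other 5 motifs.

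TM4SF1 went the other way. The probe set 209386_at gave 631 in shCtl against 2667 in shCav1. At 209387_s_at the signal was 292.5 and 1309, and at 215034_s_at it was 209 and 1083. All 3 listed probe sets were higher in the knockdown sample, by 4.22, 4.48 and 5.18-fold. For each of the 5 genes, a further probe set under 2-fold would carry no gene name here and could not be read. The mean log2 difference was 2.20 ± 0.15 (SD over 3 probe sets on the same arrays, which is technical). TM4SF1 was 1 of 4 genes with at least 3 listed probe sets, beside AK4, CAPS and THSD7A. The median SD between listed probe sets over the 23 genes with at least 2 was 0.16. Both SDs cover only probe sets that passed the 2-fold listing, which removes discordant ones beforehand. They therefore do not measure how well all probe sets of a gene agree. These probe sets ranked 22, 19 and 16 among the 141 bright probe sets at least 2-fold higher. All 3 were among the 7032 brightest of the filtered probe sets by mean log2 signal, a mean that includes the array where they were higher. These brightest probe sets begin at a geometric mean signal of 416. The shCtl signals at 209387_s_at and 215034_s_at lay below that, so nothing is read from this place.

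The 3 TM4SF1 probe sets are not independent measurements. Their deposited alignments, on the minus strand in band 3q25.1, are chr3:149086808-149095402, chr3:149087329-149095396 and chr3:149087457-149089323. These genomic spans overlap over 1867 bases, the whole span of the third. The probe sequences themselves were not compared. Of the 10 nearest protein-coding neighbours in GRCh38.p14, which include the family members TM4SF18 and TM4SF4 and the transcriptional coactivator gene WWTR1, none was listed. The same held for the neighbours of the other 4 genes, and nothing is read from it. TM4SF1 was the listed member among 6 genes of its family, and none of 16 tetraspanin genes, a separate family of membrane-spanning proteins, was listed. The TM4SF1 promoter, chr3:149377600-149377899 on the minus strand in GRCh38.p14, is shown because this gene moved against the other 4.
TM4SF1: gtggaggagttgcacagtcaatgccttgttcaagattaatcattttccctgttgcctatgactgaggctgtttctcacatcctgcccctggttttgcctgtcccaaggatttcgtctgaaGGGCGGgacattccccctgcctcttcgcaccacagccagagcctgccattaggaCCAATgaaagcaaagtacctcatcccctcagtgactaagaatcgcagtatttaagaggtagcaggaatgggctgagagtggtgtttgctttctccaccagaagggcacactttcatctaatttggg
It held GGGCGG and CCAAT (present in 34.6% of windows) 1 time each, and neither TATAAA nor CAGGTG. Its GC content was the lowest of the 4 promoters shown. The motif CCATAT, found in 5.62% of all windows, occurred in none of them.

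**Figure D1:**
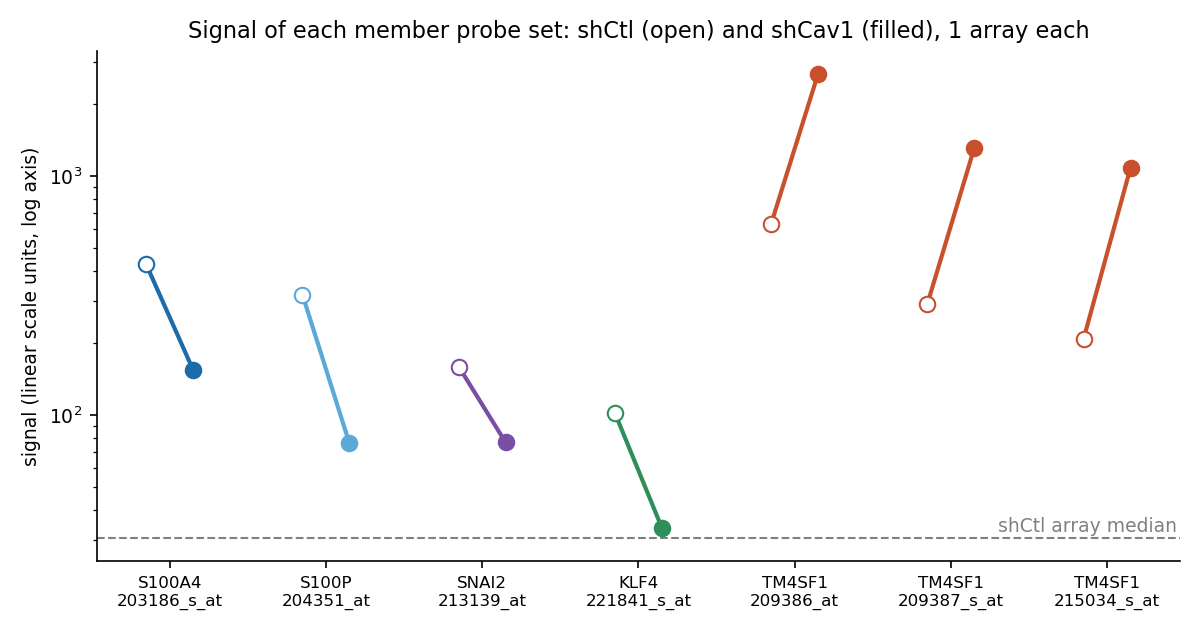
Linear signal on a log axis for the 7 probe sets, with the shCtl array as open circles and the shCav1 array as filled circles, 1 array each and no error bars. The 4 probe sets of S100A4, S100P, SNAI2 and KLF4 slope down and the 3 of TM4SF1 slope up, while KLF4 ends at 33.9, near the dashed shCtl array median of 30.6; heights of different probe sets are not comparable.

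**Figure D2:**
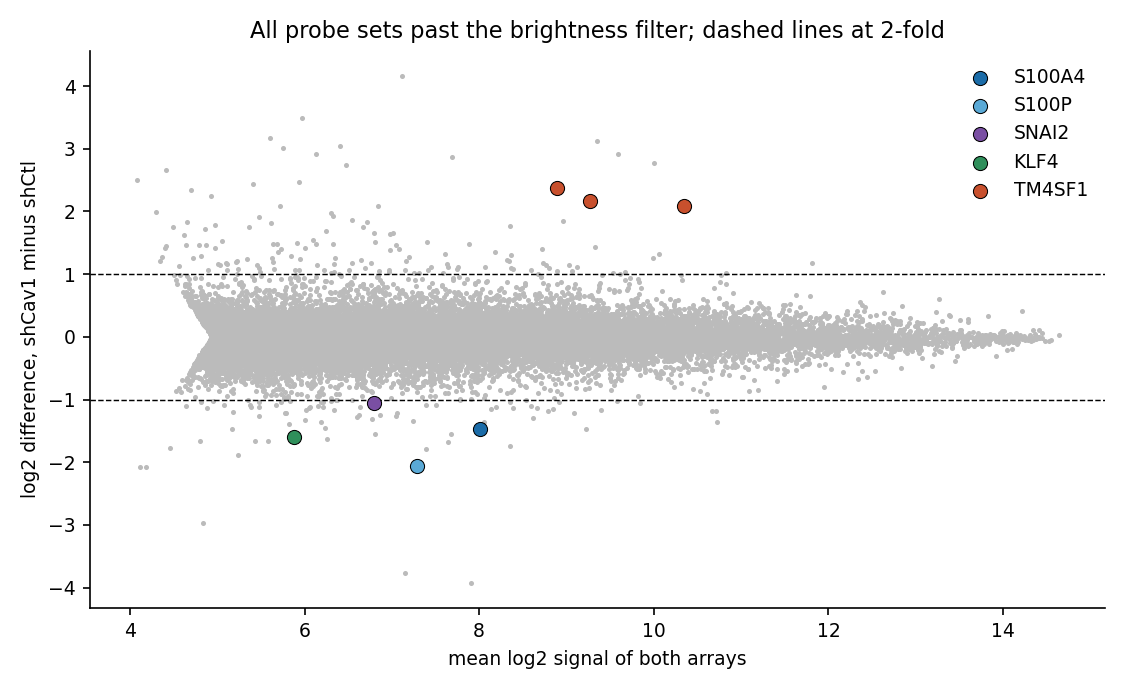
The log2 difference (shCav1 minus shCtl) of each of the 28128 bright probe sets against its mean log2 signal, with the 5 genes coloured and dashed lines at 2-fold. The TM4SF1 points lie above the upper line, as the 2-fold listing that chose them requires, whereas SNAI2, at -1.05, lies next to the lower line. The mean signal includes the shCav1 array, where TM4SF1 was higher.

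**Figure D3:**
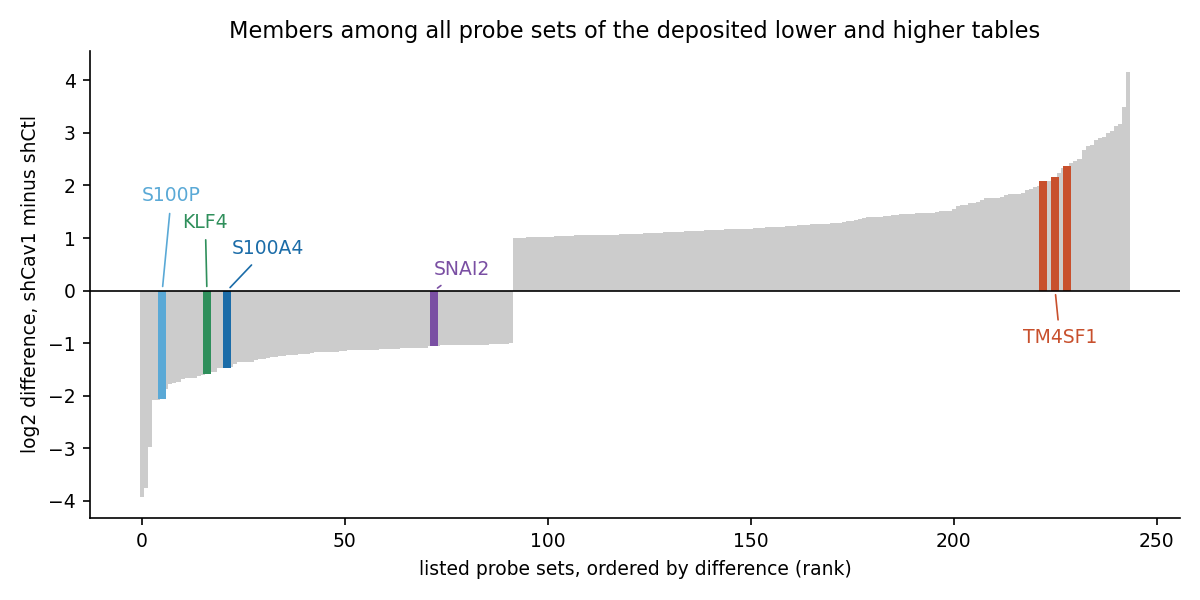
All 244 listed probe sets as bars of log2 difference (shCav1 minus shCtl), ordered from lowest to highest, with the 5 genes coloured and labelled. S100P, KLF4 and S100A4 sit toward the far end of the lower side, SNAI2 close to its inner edge, and the 3 TM4SF1 bars among the larger increases.

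Other genes of the same pathways were read from 14 related lists. Apart from the 5 genes themselves these hold 178 different gene symbols, of which 7 were listed past 2-fold, 4 higher and 3 lower with CAV1 among them. The shares over all bright probe sets, 0.501% higher and 0.299% lower, count probe sets and not genes, so they stand beside these counts without a comparison. Among 12 regulators of the epithelial-to-mesenchymal transition, 1 was lower and 1 higher. The lower one was SNAI2. The higher one was PRRX1, a homeobox transcription factor linked to mesenchymal identity, with a signal of 181 in shCtl and 462 in shCav1 and a log2 difference of 1.35. Thus 2 regulators of the same process differed in opposite directions. Of 13 mesenchymal markers, among them VIM, CDH2 and FN1, only S100A4 was listed. None of 18 epithelial markers was listed, including CDH1, a known target of SNAI2 repression, and none of 14 genes of liver stem cells and tumour initiation, such as CD44, PROM1 and EPCAM. A difference under 2-fold in these genes is not excluded, because such probe sets carry no gene name here. Listed probe sets with more than 1 gene symbol were not matched to the lists. Nothing is therefore read from CDH1 beside SNAI2.

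KLF4 also belongs to a list of 11 reprogramming factors. There it was the lower gene, and MYCN, a MYC-family transcription factor, was the higher one, with a signal of 29.7 in shCtl and 243 in shCav1 and a log2 difference of 3.04. The MYCN control signal lay below the array median, and with a pseudocount of 16 the difference was 2.51. Of 17 KLF genes KLF4 was the listed one. ITGA2, the alpha-2 integrin subunit of a collagen receptor, was the listed gene among 12 integrins, with a signal of 1007 in shCtl and 449 in shCav1 and a log2 difference of -1.17. None of 15 proteases of invasion, such as MMP2, MMP14 and PLAU, was listed.

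Of 12 protease inhibitors, 2 were higher and 1 was lower. SPINK1, a secreted trypsin inhibitor, had a signal of 32.9 in shCtl and 587 in shCav1. TIMP3, an inhibitor of matrix metalloproteinases, was higher at 2 probe sets, with 22.5 and 75.8 at 201147_s_at and 19.6 and 56.3 at 201150_s_at. CSTA, an inhibitor of cysteine cathepsins, was lower, with 76.7 in shCtl and 24.2 in shCav1. The TIMP3 signals in shCtl and the CSTA signal in shCav1 lay below the array median, and the SPINK1 signal in shCtl was near it. With a pseudocount of 16 the log2 difference went from 4.16 to 3.63 for SPINK1 and from -1.66 to -1.205 for CSTA. For TIMP3 it went from 1.75 to 1.25 at 201147_s_at and from 1.52 to 1.02 at 201150_s_at. The remaining list, of 14 caveola gene symbols (older names included), held CAV1 as its listed gene.

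The hepatocyte origin of Hep3B could not be checked, because a listing shows a difference between the samples and not whether a marker is expressed. Of 13 hepatocyte markers FGG, the fibrinogen gamma chain, was listed, and its signal was 263 in shCtl and 944 in shCav1. None of the markers in 5 lists for fibroblasts and stellate cells, endothelium, macrophages, lymphocytes and cholangiocytes was listed, so a difference of 2-fold in a marker of another cell type was not seen among the listed genes. Their levels, and those of the other hepatocyte markers, could not be read here.

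**Figure D4:**
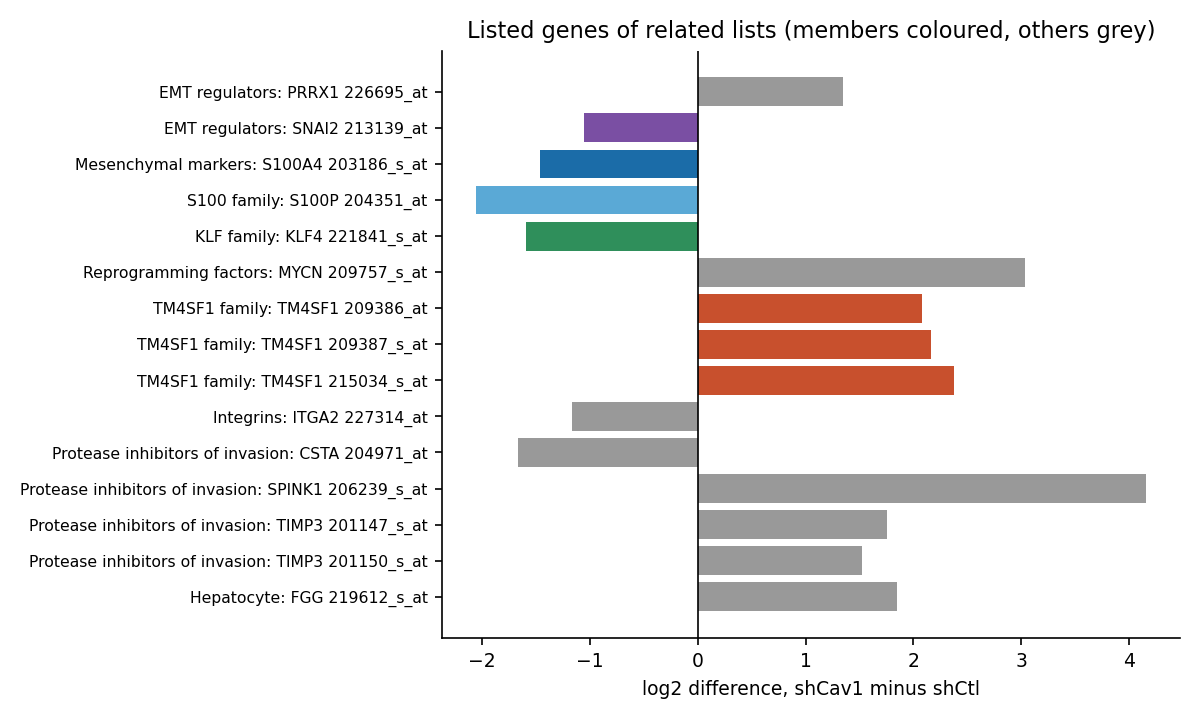
Bars of log2 difference (shCav1 minus shCtl) for each listed probe set of the related lists, other than CAV1, and of the hepatocyte list, with the 5 genes coloured and the others grey. Lower and higher genes occur side by side, as with SNAI2 at -1.05 and PRRX1 at 1.35.

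The SNAI2 probe set lies on the minus strand at chr8:49830326-49834152 in the deposited alignments (band 8q11.21), which leaves the 5 genes on 5 different chromosomes. Only a few chosen terms of the deposited annotation were read, so other locations of the 5 genes are not given. TM4SF1 is the only higher gene among the 5. All 4 lower genes carried the term nucleus, which 23 of the 68 lower genes (33.8%) and 23 of the 122 higher genes (18.9%) carried. TM4SF1 carried integral to plasma membrane, as did 14 of the 122 higher genes (11.5%) and 3 of the 68 lower genes (4.41%). S100A4 and S100P carried calcium ion binding. The term was held by 3 of the 68 lower genes (4.41%), the other being CAPS (calcyphosine), and by 11 of the 122 higher genes (9.02%). SNAI2 and KLF4 carried zinc ion binding, held by 9 of the 68 lower genes (13.2%) and 9 of the 122 higher genes (7.38%). Both also carried DNA binding, held by 7 lower genes (10.3%) and 11 higher genes (9.02%). None of the 5 was annotated to the extracellular region, a term held by 3 of the 68 lower genes (4.41%) and 28 of the 122 higher genes (23.0%).

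For each of the 5 genes, the genes with the most similar difference among listed, bright probe sets were taken, by the gap in log2 difference at the brightest probe set of the gene. S100A4 was closest to FAR2, a fatty acyl reductase (-1.47), and PKIB, an inhibitor of protein kinase A (-1.47). S100P was closest to CDC42EP3, an effector of the GTPase CDC42 (-2.07), and XK, a membrane transport protein (-2.08), whose shCav1 signals of 8.87 and 8.40 lay below the array median. SNAI2 was closest to CHORDC1, a partner of the chaperone HSP90 (-1.06), and SCCPDH (-1.04). KLF4 was closest to CAPS (-1.62) and CA2, a carbonic anhydrase (-1.55). TM4SF1 was closest to CCND2, cyclin D2 (2.08), and GPAM, a glycerol-3-phosphate acyltransferase (2.08). With a single difference per gene, likeness here means only a similar fold at the probe set named by the rule. Other listed probe sets of the same genes differed from it, at 1.26 for CCND2, -1.77 for FAR2, -1.18 for PKIB, and -1.22 and -1.09 for CAPS. With a pseudocount of 16 the closeness to S100P was lost, with -1.10 for CDC42EP3 and -1.08 for XK against -1.86 for S100P. FAR2 (-1.01 against -1.38 for S100A4), CCND2 (1.81) and GPAM (1.58, both against 2.05 for TM4SF1) also moved apart. PKIB (-1.43) and the genes closest to SNAI2 and KLF4 stayed nearer. The FAR2 signal of 21.7 in shCav1 and the GPAM signal of 25.5 in shCtl also lay below the array median.

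The differences of the 5 genes kept their sign when the arrays were set against each other in other ways. This could hardly turn out otherwise. An equal pseudocount cannot change a sign, and centring subtracted only -0.007 (the median) or 0.14 (the spikes) from differences of at least 2-fold. When differences were centred on the hybridization spikes, the log2 difference was -1.60 for S100A4, -2.20 for S100P, -1.19 for SNAI2 and -1.73 for KLF4, and it ran from 1.94 to 2.24 over the TM4SF1 probe sets. Under a limit of 3-fold, S100P, KLF4 and the 3 TM4SF1 probe sets remained past the limit, KLF4 with 3.01-fold, and S100A4, with 2.76-fold, and SNAI2, with 2.07-fold, did not.

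**Figure D5:**
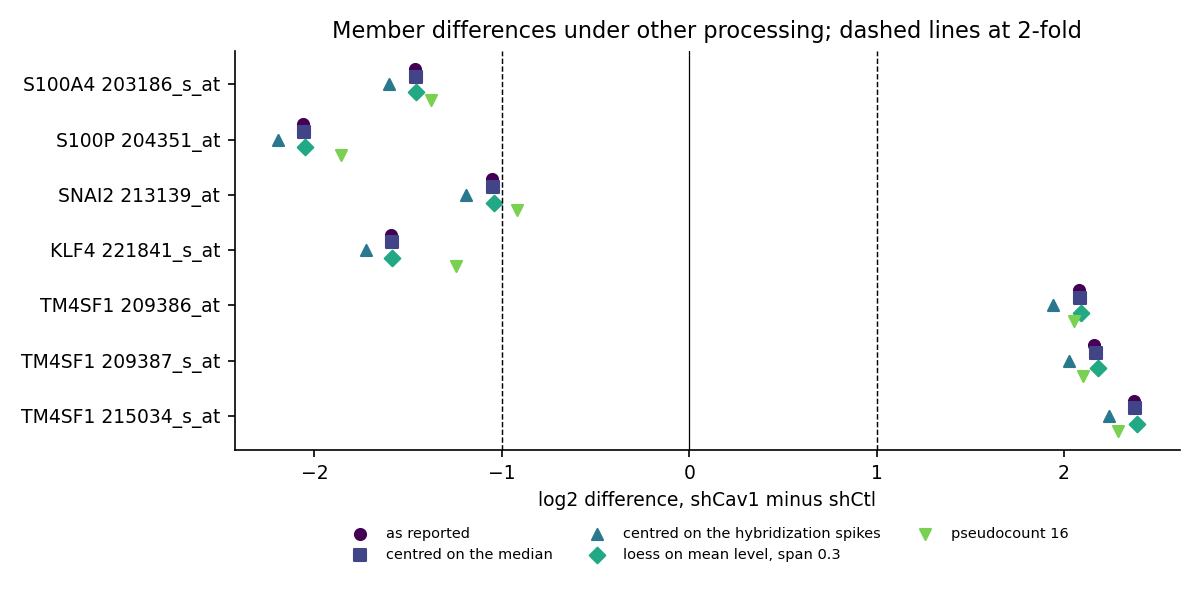
The log2 difference (shCav1 minus shCtl) of each of the 7 probe sets as reported, after centring on the median, after centring on the hybridization spikes, after a loess curve on mean level and with a pseudocount of 16, with dashed lines at 2-fold. No point changes sign, and SNAI2 with the pseudocount, at -0.92, is the point that falls inside the 2-fold lines.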

How the data were processed

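Per the labels' protocols, total RNA was isolated with Trizol and the label was biotin. RMA is the tool that the submitters' processing notes name. Not given in the sources used here are its version and a genome build. RMA normalizes arrays to equal distributions, which hides a change in total RNA.

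The series values, as deposited by the authors, are log2 values from which the mean over both samples was subtracted for each probe set; the columns mirror each other (largest row sum 1e-06) with a median of 0. Their shCav1 minus shCtl difference equalled the log2 fold change in the authors' deposited tables for all 244 listed probe sets within 1e-05, which settled scale and direction. Those tables also give a linear fold by the authors. Levels in shCtl are a linear signal intensity per probe set from a deposited table, per the file headers. Its other column (1 in number) matches no label by name and was left out. For shCav1 a level is the shCtl signal times the fold of the series values, on the assumption that both share 1 scale.

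The 62 control probe sets were left out of 54675. Brightness was filtered at the median of all values, and a difference was counted at 2-fold. Gene names came from the deposited tables, so the other probe sets are unnamed. Some annotation cells on biological process were emptied in the tables used and that column was not used. Promoters were matched by symbol to RefSeq for 4 of the 5 genes. A comparison of the proteins was planned and not run. The genes and lists were chosen with earlier results of these data known. The rule for named genes took CAV1, the 5 genes, listed members of the lists, 2 genes of nearest difference each and the 2 listed lower genes closest to 2-fold. Genes beyond it were chosen after their values were seen.

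Samples were grouped by title, 1 array per group, and no test was run. The counting for this comparison, tested on simulated data with known changes among 54613 probe sets, recovered 100.0% of those changed 4-fold and 0.0% of those changed 1.5-fold. Changes were planted in bright probe sets, within noise of the robust SD of 0.21. With so little noise these outcomes were nearly fixed in advance. They check the counting alone and not the error of an array pair. Alternatives were no filter, centring on the median or on the spikes, brightness filtered at the 75th percentile, a loess curve (span 0.3), a pseudocount of 16 and limits of 1.5-fold and 3-fold. Python 3.11.15 and statsmodels 0.14.6 were used.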

Additional observations from a re-analysis of the deposited data

How the results depend on the processing

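Over the 7 probe sets of the 5 genes, 30 of 31 log2 differences recomputed under other settings moved by less than 0.21, the robust SD over bright probe sets, and none changed sign. That SD is a spread between probe sets of 1 array pair and does not measure replicate error. The 31 include 3 values that are no other processing, namely the mean over the listed TM4SF1 probe sets, set against each of them. The centring shifts, -0.007 for the median and 0.14 for the spikes, are smaller than this SD, so those settings could not exceed it. An equal pseudocount cannot change a sign. The authors' folds equal the series values and give no separate check. The exception was KLF4 with a pseudocount of 16, at -1.24. The count of 4 lower probe sets fell to 3 under that pseudocount, which took SNAI2 to -0.92, and to 3 under a filter at the 75th percentile (a signal of 132), which left out KLF4. A 3-fold limit left 2. The count of 3 higher probe sets was 3 under every alternative named in the methods. Over all bright probe sets, 141 were higher and 84 lower. The stricter filter, with fewer probe sets to count, gave 79 and 43, a pseudocount of 16, which shrinks dim differences, 91 and 49, a limit of 1.5-fold 552 and 578, and a limit of 3-fold 42 and 16. Centring on the spikes gave 102 and 142. For 55 listed probe sets of 44 other genes, those of the naming rule and those annotated to DNA binding or calcium ion binding, 184 of 220 recomputed differences moved by less than 0.21. The 36 that moved more did so with the pseudocount, which took 24 of the 55 probe sets under 2-fold, and 0 changed sign. No paired analysis was possible because the groups hold 1 sample each, and no replicate could be left out. Signal over background limits KLF4 most, since its shCav1 signal is near the array median.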

Other observations

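SNAI2 and KLF4 were among 18 listed genes annotated to DNA binding, 7 lower of 68 lower genes and 11 higher of 122 higher genes. These genes were picked from the annotation after their values were seen. The other lower ones past the brightness filter were the homeobox gene DLX2, with a signal of 83.1 in shCtl and 35.9 in shCav1, the zinc finger gene ZNF215 with 146 and 67.3, RFX6, a factor of endocrine pancreas development, with 113 and 55.5, and GPBP1L1 with 58.1 and 28.9. The higher ones included, besides MYCN and PRRX1, the homeobox gene IRX3 with 55.8 and 199, AFF3 with 42.4 and 136, TOX with 42.0 and 117, TSHZ1 with 52.9 and 126, DACH1 with 42.3 and 88.9 and the circadian repressor gene BHLHE41 with 87.5 and 178.5. With a pseudocount of 16 the log2 differences of DLX2 (-0.93), ZNF215 (-0.96), RFX6 (-0.85), GPBP1L1 (-0.72), DACH1 (0.85) and BHLHE41 (0.91) were under 2-fold. No DNA-binding gene had probe sets in both tables.

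CAPS, which shares the calcium ion binding annotation with S100A4 and S100P, was listed as lower at 3 probe sets, with signals of 134 in shCtl and 43.4 in shCav1 at 231729_s_at, 84.0 and 36.0 at 231728_at, and 245 and 115 at 226424_at. With a pseudocount of 16 the log2 differences at 231728_at and 226424_at were -0.94 and -0.996, under 2-fold. NOTCH2, a receptor with calcium-binding repeats, was 1 of the 11 higher genes with the calcium ion binding annotation. Its 2 listed probe sets were higher, with 294 and 649 at 212377_s_at and 353 and 776 at 202443_x_at.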
